A study of Zea mays with 6 samples.

Results

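The genes described here are the most abundant transcripts of the young maize tassel that held nearly the same level in Bif1Bif4 and wildtype plants. All 39305 genes of the deposited table were ranked by the mean of the 3 wildtype libraries, and the top 200 were kept. A gene stayed in the set where the Bif1Bif4 mean, divided by the wildtype mean after 1 was added to each, lay from 0.75 to its inverse, about 1.3. The homeobox gene kn1 and the auxin response factor gene ARF28 were left out by the rule. This left 175 genes, while 18 of the top 200 had a ratio below these bounds and 5 had a ratio above them. The members were thus chosen by their wildtype level and by the ratio of the genotypes. Both are given as descriptions, without a test of the members against other genes.

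Bif1;Bif4 plants, written Bif1Bif4 as in the sample titles, were heterozygous for both dominant mutations in the B73 inbred background, and wildtype plants were B73. All plants of both groups grew in a greenhouse, and whole tassels of 2 to 4 mm were harvested and pooled. Each of the 3 Bif1Bif4 libraries came from 10 tassels and each of the 3 wildtype libraries from 5, so pool size and genotype cannot be told apart. Bif1 and Bif4 (Barren inflorescence) alter Aux/IAA proteins, which repress auxin responses, and such mutations change the protein, so a transcript level is no check of the genotype. The comparison asked which transcripts differ in tassels that carry both mutations.

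A tassel of this size consists largely of meristems and the primordia that they have just formed. Dividing plant cells keep large pools of messenger RNA for the cytoskeleton, for protein synthesis, for energy metabolism and for packing newly made DNA into chromatin. Genes of these kinds are often used as internal standards in expression assays, because their levels tend to vary little between samples, although many also respond to cell division, oxygen or sugar supply.

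Recovered read totals were 23431863, 23066609 and 23196296 for Bif1Bif4 replicates 1 to 3, and 21047225, 24636859 and 21631540 for wildtype replicates 1 to 3. The 10 most abundant genes took 1.85% to 1.97% of a library. Over all 21924 genes with at least 10 normalized counts in at least 3 libraries, the first principal component (48.2% of the variance) separated the genotypes, and the second (24.4%) set wildtype replicate 2 apart. Values are counts that the authors divided by a size factor per library. Of 12 inflorescence and meristem marker genes, 8 had at least 10 normalized counts in all 6 libraries, and the sum over the 12 was 11868 to 14460 in Bif1Bif4 and 15090 to 17144 in wildtype. Of this, ub3 gave 6655 in Bif1Bif4 and 3237 in wildtype (means), and the other 11 genes summed to 5819 to 6760 in Bif1Bif4 and 12463 to 13192 in wildtype. The branching regulators ra1, ra3, ba1 and bd1 of that list were near 0 in Bif1Bif4, whereas ub3 and fea3 (means of 770 in Bif1Bif4 and 327 in wildtype) were higher in every Bif1Bif4 library than in any wildtype library. Of 13 leaf photosynthesis genes, 12 were detected, with a sum of 1969 to 2561 in Bif1Bif4 and 1927 to 2166 in wildtype, and the anther list rested on ocl4 alone. In pooled whole tassels, fewer cells of a type and less RNA per cell cannot be told apart.

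The 175 genes held 12.1%, 11.9% and 12.1% of all normalized counts in Bif1Bif4 replicates 1 to 3, against 12.6%, 11.5% and 12.1% in wildtype replicates 1 to 3. The mean share was 12.0 ± 0.123% in Bif1Bif4 and 12.1 ± 0.518% in wildtype (SD, n = 3 each). The wildtype range thus spanned the Bif1Bif4 range. Wildtype replicate 1 had the highest share of the 6 libraries and wildtype replicate 2 the lowest. Among the wildtype libraries, replicate 1 gave the highest value for 116 of the 175 genes and replicate 2 the lowest value for 112. A principal component analysis of the 175 genes alone had a first axis (39.7% of the variance) on which wildtype replicate 2 lay at 2.49, while the other 5 libraries lay at or below 0.18. The second axis (28.8%) placed the 3 Bif1Bif4 libraries at 0.47 to 1.21, wildtype replicates 1 and 3 at -1.37 and -1.39, and wildtype replicate 2 at 0.17.

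Within the bounds that the rule set, the ratio of Bif1Bif4 to wildtype had a median of 0.999, with 87 genes above 1 and 88 below. The median over all tested genes was 1.0. Of the 175 genes, 114 had a ratio from 0.9 to 1.1, and 61 were within 5% of 1. A further 26 lay from 0.8 to 0.9 and 25 from 1.1 to 1.2. At the edges, 3 lay under 0.8 and 7 above 1.2. The bounds were not narrow for genes of this kind: 80.3% of all tested genes had a ratio within them. Ranked by the Bif1Bif4 mean, 161 of the 175 genes were again in the top 200, and the lowest of them had rank 280. In all 6 libraries taken singly, 135 of the genes were in the library's own top 200.

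**Figure D1:**
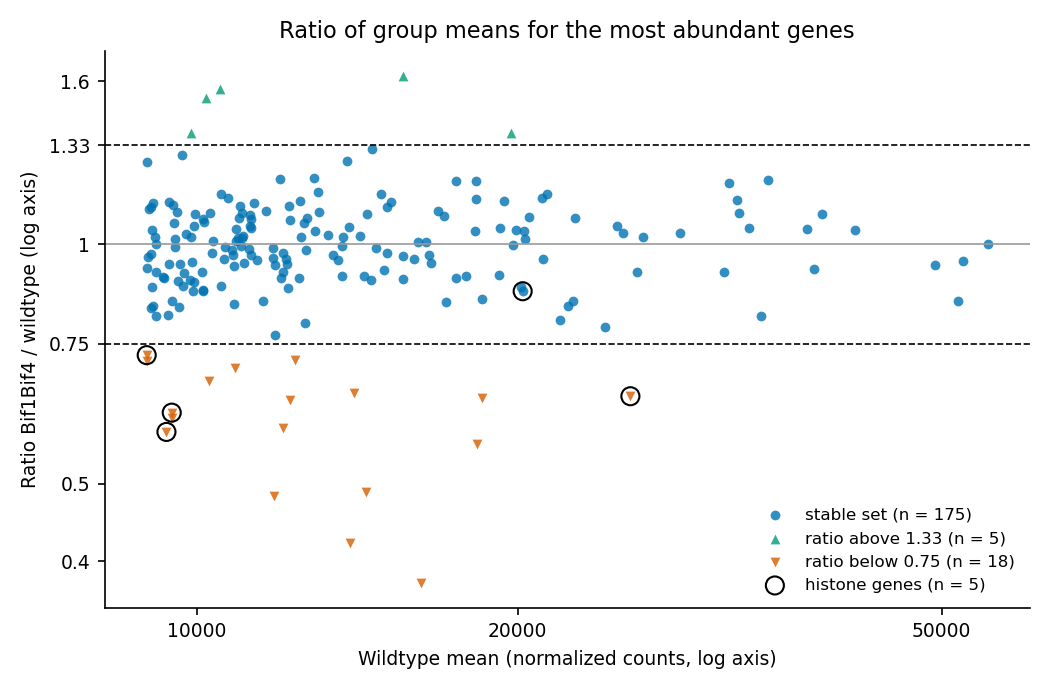
Ratio of the Bif1Bif4 mean to the wildtype mean (vertical, log axis) against the wildtype mean in normalized counts (horizontal, log axis) for the most abundant genes, with dashed lines at the bounds of 0.75 and about 1.3. The 175 genes of the stable set lie between the lines, 5 genes lie above and 18 below, and 4 of the 5 circled histone genes are among the 18.

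Next to the lower bound, the members closest to leaving the set were GRMZM2G417455 (ratio 0.768), GRMZM2G020940 (0.787) and a gene for the small ribosomal subunit protein S4, rps4 (GRMZM2G035017, 0.796). Just outside it were the linker histone gene hon110 (0.726), GRMZM2G017187 (0.715) and GRMZM2G479684 (0.713). Next to the upper bound, the zinc finger gene znf1 (1.31) and GRMZM2G147243 (1.29) were inside. GRMZM2G004382 (1.38) and ANT2 (1.38), an ADP/ATP carrier gene, were outside. The last member by rank was GRMZM2G430600 at rank 198, and GRMZM2G141931 was the first gene past rank 200. Rank is by reads and so rises with transcript length, and levels per length were not computed.

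The groups did not overlap for 32 of the 175 genes (18.3%), 13 with all Bif1Bif4 libraries higher and 19 with all lower. Over all tested genes this share was 26.9%. By limma, with Benjamini-Hochberg adjustment over all tested genes and a threshold of 0.05, 1 of the 175 genes rose and 0 fell. Over all tested genes 5.04% were called, 2.13% risen and 2.91% fallen. Without adjustment 27 of the 175 genes had p under 0.05, against 21.0% of all tested genes. On the recovered reads, edgeR's quasi-likelihood test called 0 of the 175 genes (26 at an unadjusted p under 0.05), against 4.61% of all tested genes. Run on the same reads, DESeq2 called 3 genes risen and 10 fallen, against 9.66% of all tested genes. In the authors' deposited table, 3 of the 175 genes were higher and 9 lower at an adjusted p under 0.05, against 9.09% of the genes with an adjusted p. Because the rule bounded this contrast, these counts describe the set and are no result about it.

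The gene called by limma was znf1 (GRMZM5G836222, with the synonym AN13). It had 19081, 19384 and 19129 normalized counts in Bif1Bif4, against 15590, 13210 and 15006 in wildtype. All 3 Bif1Bif4 libraries were above all 3 wildtype libraries, with a log2 fold change of 0.40 ± 0.087 (SE, limma adjusted p = 0.0388). With edgeR the adjusted p was 0.0518, with median-centred values 0.0583, and without any 1 Bif1Bif4 library it was 0.117 to 0.153. Without wildtype replicate 3 it was 0.0890, so the call did not hold under these settings or with a replicate block (0.0770). It held with DESeq2 (adjusted p = 7.1e-05), in the authors' deposited table (adjusted p = 0.00015) and without wildtype replicate 1 or 2 (0.0388 and 0.0391). The log2 fold change was 0.33 to 0.45 over all settings. GRMZM5G809695, listed with the synonym ERECTA, the name of a receptor-like kinase gene that shapes inflorescences in Arabidopsis, was low by a small and even margin. It had 27035, 27670 and 27852 in Bif1Bif4 and 33202, 34719 and 33690 in wildtype. The groups were separate, with a ratio of 0.812, and the spread within groups was the lowest of the 175 genes (pooled SD of 0.0282 on the log2 scale). The limma adjusted p was 0.0639, while the authors' deposited table gives an adjusted p of 6.1e-05.

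A 95% interval of the fold from the limma fit lay wholly within the bounds for 126 of the 175 genes (72%), against 41.7% of all tested genes. For the other 49 genes the ratio itself was within the bounds and its interval crossed at least 1 of them. For the 200 genes next in rank, whose ratio no rule had bounded, the share inside was 69.5%. The median pooled SD of log2 values was 0.121 in the set and 0.115 in those next 200 genes.

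**Figure D2:**
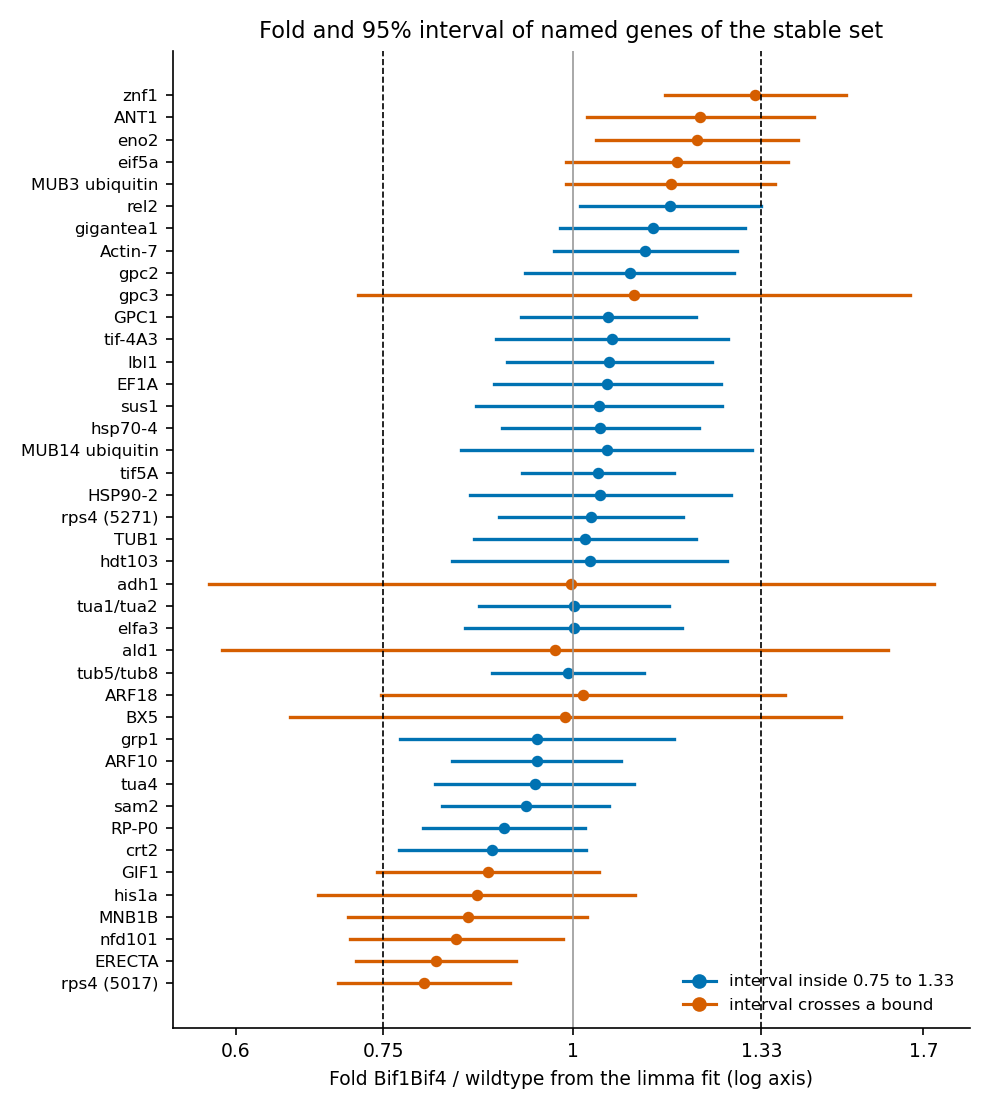
Fold of Bif1Bif4 over wildtype with its 95% interval from the limma fit (horizontal, log axis) for 41 named genes of the set, with dashed lines at the bounds (the digits after rps4 are the last digits of its identifiers). Blue intervals (25 genes) lie inside the bounds, orange ones (16 genes) cross a bound, and the widest belong to adh1, ald1, BX5 and gpc3.

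Cytoskeletal genes held ranks 1 and 4. Tubulins are the subunits of microtubules, which guide cell wall deposition and form the spindle. The gene at rank 1, an alpha-tubulin gene matched to both tua1 and tua2 (GRMZM2G153292), had 53025, 56214 and 56511 normalized counts in Bif1Bif4, against 58173, 50961 and 56538 in wildtype. The groups overlapped, with a ratio of 1.0. The alpha-tubulin gene tua4 had 45891, 44090 and 49247 in Bif1Bif4 and 53732, 46886 and 47134 in wildtype, a ratio of 0.942. A beta-tubulin gene with the symbols tub5 and tub8 had 10295, 10602 and 10732 in Bif1Bif4, against 11017, 10657 and 10217 in wildtype. Its highest library was 1.08 times its lowest, and no library stood apart. The fourth tubulin of the set, TUB1, had a ratio of 1.02. Near-identical tubulin copies can share reads, and how the counting treated them is not given in the sources used here, so the split between copies is uncertain.

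Of 11 tested genes with a tubulin symbol, 9 had a ratio within the bounds and the median was 1.02. The rule had fixed this for the 4 members. Of the 7 outside the set 5 lay within the bounds, against 80.3% of all tested genes. Outside the set, tua6 and TUB2 rose, with log2 fold changes of 0.35 (limma adjusted p = 0.0372) and 0.46 (limma adjusted p = 0.0300), and edgeR and DESeq2 called both as well. In tub6 all Bif1Bif4 libraries (3706, 3483 and 4149) were below all wildtype libraries (5111, 4754 and 4566), with a ratio of 0.786, a limma adjusted p of 0.0605 and a DESeq2 adjusted p of 0.0052. None of the 4 tubulins of the set, whose ratios the rule had bounded, was called by limma, edgeR or DESeq2. Over all tested genes these tools called 5.04%, 4.61% and 9.66%. Actin forms the filaments that carry vesicles in plant cells. The actin gene of the set, with the symbol Actin-7 (GRMZM2G067985), had 16104, 16722 and 17611 in Bif1Bif4 and 16455, 14279 and 14529 in wildtype. Its groups overlapped through wildtype replicate 1, and the ratio was 1.11. Among 7 tested genes with an actin symbol 4 had a ratio within the bounds. Outside the set this held for 3 of 6, against 80.3% of all tested genes. None of the 7 was called by limma, edgeR or DESeq2, with 2 at an unadjusted limma p under 0.05 (21.0% of all tested genes).

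Among the members with a symbol, protein synthesis was represented by 2 elongation factor, 5 initiation factor and 9 ribosomal protein genes. Elongation factor 1-alpha, which brings aminoacyl-tRNA to the ribosome, was represented by EF1A (GRMZM2G153541), with 34423, 35071 and 33999 in Bif1Bif4, against 38223, 29704 and 30964 in wildtype. The 3 Bif1Bif4 libraries lay inside the wildtype range. A second elongation factor gene, elfa3, had a ratio of 0.995. The factor eIF5A helps ribosomes through difficult peptide bonds. Its gene tif5A (GRMZM2G144030) had 13694, 13121 and 13386 in Bif1Bif4 and 13288, 12518 and 12912 in wildtype, one of the 5 lowest spreads in the set (pooled SD of 0.0375 on the log2 scale). The other eIF5A gene, eif5a (GRMZM2G113696), had 15437, 15312 and 14600 in Bif1Bif4, against 14742, 11243 and 12990 in wildtype, a ratio of 1.16. For the RNA helicase gene tif4A2 all Bif1Bif4 libraries (12344, 12203 and 12146) were above all wildtype libraries (11884, 9382 and 10847), with a limma adjusted p of 0.291. All 9 tested genes with an initiation factor symbol and all 4 with an elongation factor symbol had ratios within the bounds. Their medians were 1.05 and 0.993. The rule had fixed this for the 5 and 2 that are members. The 4 and 2 outside the set were free to differ, and 80.3% of all tested genes lay within the bounds. Without wildtype replicate 2 the 4 elongation factor ratios were all under 1, and without wildtype replicate 1 none was. None of these 13 genes was called by limma or edgeR, against 5.04% and 4.61% of all tested genes. An unadjusted limma p under 0.05 was found for 1, against 21.0% of all tested genes. DESeq2 called the initiation factor gene tif1, against 9.66% of all tested genes.

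Ribosomal proteins build the particle that translates messenger RNA. Of 36 tested genes with a ribosomal protein symbol, 34 had a ratio within the bounds, 28 had a ratio under 1 (26 when the libraries were scaled by TMM), and the median was 0.935. That list includes hcf60, whose protein belongs to the chloroplast ribosome. The 9 members had ratios from 0.796 to 1.13 and a median of 0.983. Of the 27 outside the set, whose ratios no rule had bounded, 25 lay within the bounds, against 80.3% of all tested genes. The stalk protein gene RP-P0 had 13949, 12930 and 12538 in Bif1Bif4, against 14924, 14216 and 14599 in wildtype. Its groups were separate and its ratio was 0.901. The rps4 symbol covers a pair of genes of the set with unlike ratios. GRMZM2G035017 had 10246, 9888 and 10012 in Bif1Bif4 and 13639, 11717 and 12501 in wildtype, with separate groups. GRMZM2G125271 had 12865, 14181 and 13832 in Bif1Bif4 and 14225, 12166 and 13458 in wildtype, with overlapping groups and a ratio of 1.03. Close copies can trade reads here too. By limma rpp2b, which is not in the set, was the 1 ribosomal gene that rose (log2 fold change of 0.44, adjusted p = 0.0283), and 0 fell. Over all tested genes limma called 5.04%. An unadjusted limma p under 0.05 was found for 8 of 36, against 21.0% of all tested genes. DESeq2 called 1 risen and 5 fallen, against 9.66% of all tested genes in either direction.

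**Figure D3:**
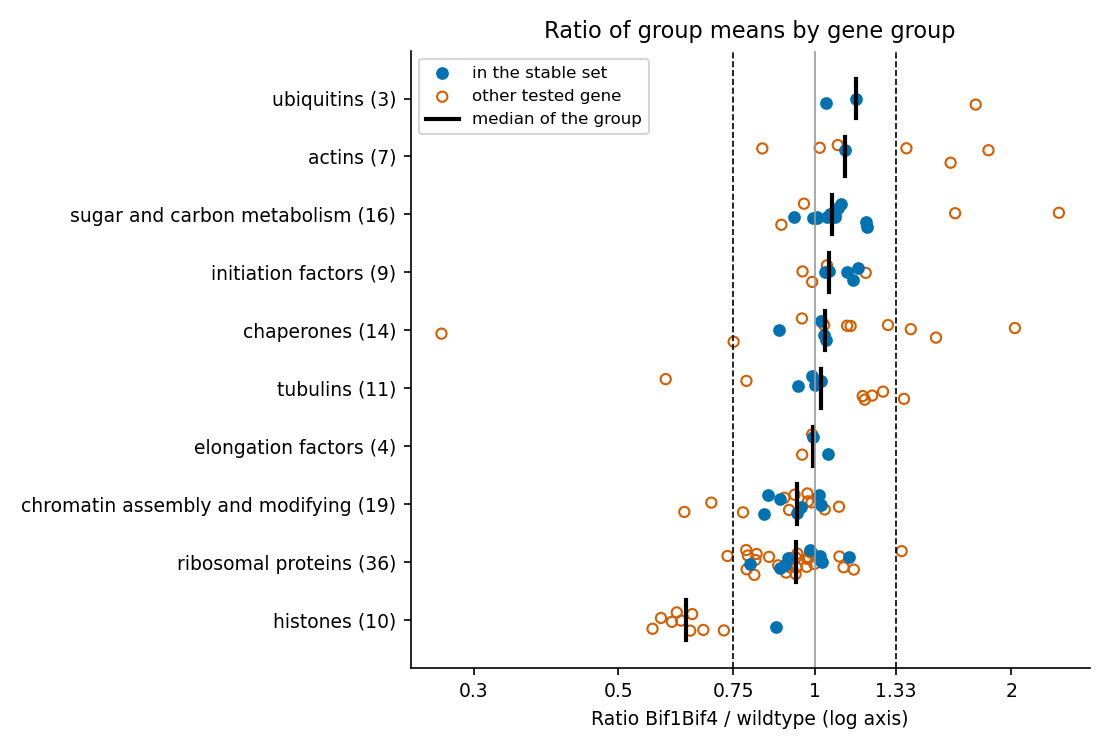
Ratio of the Bif1Bif4 mean to the wildtype mean (horizontal, log axis) for every tested gene of 10 gene groups set by symbol. The number of genes is in brackets. Filled points are genes of the stable set, whose ratios the rule bounded, open points are other genes, and a black bar marks the group's median. Medians of 9 groups lie between 0.935 and 1.16, and the histone median lies at 0.634, with 1 histone gene within the dashed bounds.

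Histones are the proteins around which DNA is wound. The abundant genes with a histone symbol were mostly outside the set. Of the top 200 genes 5 had a histone symbol, and 4 of them had a ratio below 0.75. The member was the linker histone gene his1a (GRMZM2G401308, also hon102), with 18607, 13871 and 20446 in Bif1Bif4, against 18689, 22617 and 19341 in wildtype. Its groups overlapped and its ratio was 0.873. The histone H2A gene his2a1 had 17515, 13823 and 17978 in Bif1Bif4 and 23749, 30796 and 21998 in wildtype. Those groups were separate, at a ratio of 0.644. All 10 tested genes with a histone symbol had a ratio under 1, and 6 of them had groups that did not overlap (26.9% of all tested genes). The median was 0.634, against 1.0 over all tested genes, and the median-centred and TMM scalings both gave 0.636.

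None of the 10 histone genes was called by limma (7 had an unadjusted p under 0.05, against 21.0% of all tested genes, and the adjusted p of his2a1 was 0.0563) or by edgeR (8 at an unadjusted p under 0.05). Over all tested genes limma called 5.04% and edgeR 4.61%. DESeq2 called 5 fallen, against 9.66% of all tested genes in either direction. A pair of libraries weighed on these values. Bif1Bif4 replicate 2 had the lowest value of the 6 libraries for his1a and his2a1, and wildtype replicate 2 had the highest. Without Bif1Bif4 replicate 2 the median ratio of the 10 genes was 0.711 and 4 had a ratio within the bounds, and without wildtype replicate 2 the values were 0.726 and 3. All 10 ratios stayed under 1 whichever single library was left out.

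Proteins that handle histones or bend DNA supplied 7 members. MNB1B (GRMZM5G834758, also HMG13), an HMG-box protein gene at rank 3, had 45433, 41570 and 44635 in Bif1Bif4, against 50335, 59578 and 45360 in wildtype. The groups met at their edge, with a ratio of 0.848. The HMG-type gene nfd101 had 19872, 16961 and 19185 in Bif1Bif4 and 21797, 24647 and 20471 in wildtype, with separate groups and a limma adjusted p of 0.198. The histone chaperone gene nfc101, a relative of the yeast and animal MSI1 and RbAp proteins, had 9481, 9250 and 9249 in Bif1Bif4 and 10958, 10476 and 10175 in wildtype. Its groups were separate, at a ratio of 0.885. The plant-specific histone deacetylase gene hdt103 had 21211, 20879 and 19712 in Bif1Bif4, against 24329, 16751 and 19870 in wildtype, where the Bif1Bif4 values lay inside the wildtype range. Of 19 tested genes of this group, 17 had a ratio within the bounds, with a median of 0.940. Outside the set this held for 10 of 12, against 80.3% of all tested genes. By limma 0 of the 19 genes rose and 2 fell, against 2.13% risen and 2.91% fallen over all tested genes. Those 2, nfd106 (log2 fold change of -0.53, adjusted p = 0.00769) and HMGIY2 (-0.66, adjusted p = 0.0133), were both outside the set. An unadjusted limma p under 0.05 was found for 5 of the 19, all lower, against 21.0% of all tested genes.

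Sugar and carbon metabolism gave 11 members of 16 tested genes, with a median ratio of 1.06 over the 16. Sucrose synthase splits imported sucrose, and its gene sus1 had 32943, 42388 and 41888 in Bif1Bif4, against 40147, 36201 and 35759 in wildtype. The groups overlapped, and Bif1Bif4 replicate 1 was the lowest of all 6. The glycolytic enolase gene eno2 had 41139, 41549 and 41221 in Bif1Bif4 and 38410, 31419 and 33259 in wildtype. All Bif1Bif4 libraries were higher, with a ratio of 1.20, a limma adjusted p of 0.157 and a DESeq2 adjusted p of 0.0369. Its paralog eno1 had a ratio of 0.928. The malic enzyme gene me2 had 21421, 23462 and 20840 in Bif1Bif4 and 20245, 17464 and 17113 in wildtype, also with separate groups (ratio 1.20, limma adjusted p = 0.164). No gene of this group was called by limma or edgeR, against 5.04% and 4.61% of all tested genes. An unadjusted limma p under 0.05 was found for 3 of 16, against 21.0% of all tested genes. DESeq2 called eno2 and sus2 risen, against 9.66% of all tested genes in either direction.

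A handful of the carbon genes combined a ratio near 1 with the widest spread of the set. Alcohol dehydrogenase, which regenerates NAD+ in fermentation and is induced in maize by low oxygen, is encoded by adh1. Its values were 10861, 21525 and 17146 in Bif1Bif4, against 18486, 11205 and 19502 in wildtype. The ratio of the means was 1.01, yet Bif1Bif4 replicate 1 and wildtype replicate 2 were each well below the other libraries of their group, and the pooled SD of 0.473 on the log2 scale was the highest of the 175 genes. The aldolase gene ald1 had 7203, 14519 and 11082 in Bif1Bif4 and 12382, 8115 and 12531 in wildtype (ratio 0.993, pooled SD 0.440). The glyceraldehyde-3-phosphate dehydrogenase gene gpc3 had 9545, 13238 and 13448 in Bif1Bif4 and 13048, 7546 and 13100 in wildtype (ratio 1.08, pooled SD 0.379). In all 3 genes the same pair of libraries was low. That pair also held the lowest value of each group in eno1, eno2 and Pgk-2. In the members sh1 and sus1 Bif1Bif4 replicate 1 was the lowest of its group, but wildtype replicate 3 was the lowest wildtype library. In sh1 wildtype replicate 2 was the highest of wildtype (13288, 14516 and 11281).

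Among genes outside the set, gpc4 had 5968, 12134 and 10106 in Bif1Bif4 and 9211, 4950 and 12028 in wildtype. Bif1Bif4 replicate 1 and wildtype replicate 2 were again low. The second alcohol dehydrogenase gene, adh2, had 676, 1491 and 1378 in Bif1Bif4 and 422, 785 and 952 in wildtype, so that wildtype replicate 1 and not 2 was lowest. Other glyceraldehyde-3-phosphate dehydrogenase genes had other patterns. In gpc1, often used as an internal standard, the values were 25869, 25563 and 26952 in Bif1Bif4 and 25852, 23004 and 25541 in wildtype, with a pooled SD of 0.0713. The gene gpc2 had 18129, 18249 and 19104 in Bif1Bif4, against 18399, 17929 and 14816 in wildtype. Over the whole set, Bif1Bif4 replicate 1 was the lowest of its group for 52 genes and wildtype replicate 2 for 112, and both held for 23. No label records a difference between these libraries and the others of their group.

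**Figure D4:**
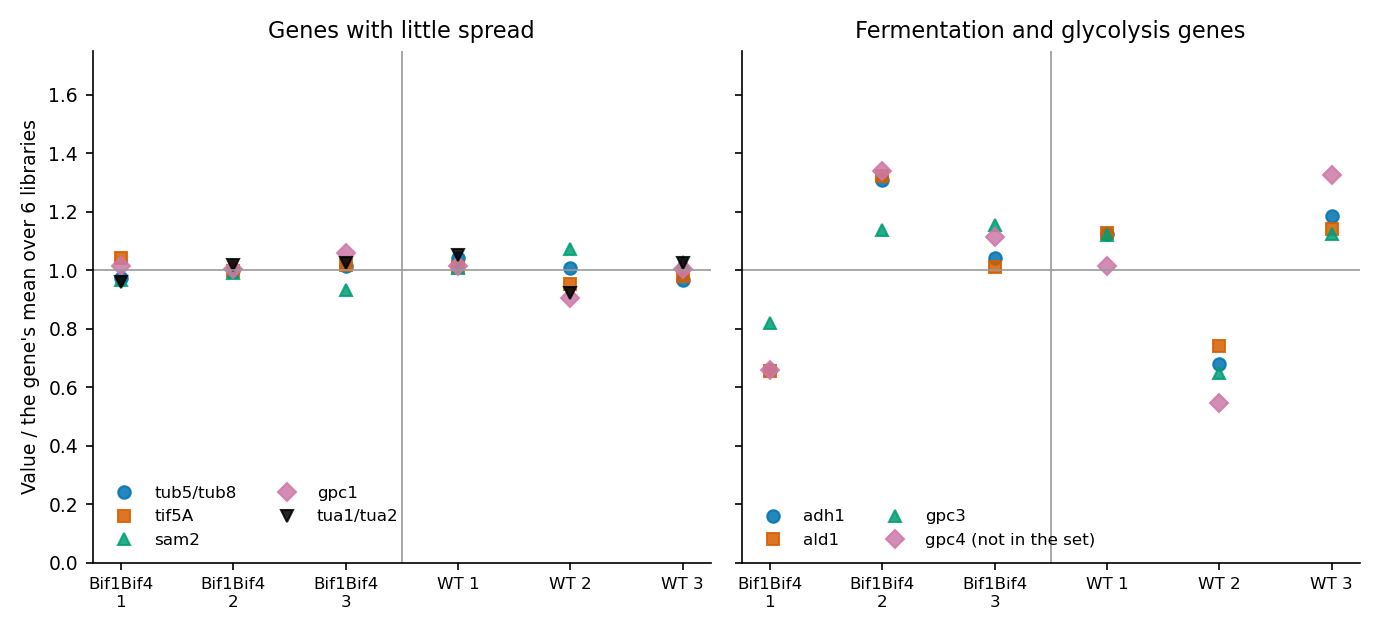
Value in each of the 6 libraries divided by the gene's mean over the 6 (vertical, no unit), with Bif1Bif4 libraries on the left and wildtype (WT) libraries on the right of each panel. The 5 genes on the left stay close to 1 in every library, while adh1, ald1, gpc3 and gpc4 on the right are low in Bif1Bif4 replicate 1 and in wildtype replicate 2.

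Chaperones, which fold new or damaged proteins, gave 4 members, with ratios from 0.883 to 1.04. The gene hsp70-4 had 42065, 41752 and 45703 in Bif1Bif4, against 45178, 38714 and 40556 in wildtype. HSP90-2 had 24653, 25279 and 27978 in Bif1Bif4 and 29960, 22269 and 23114 in wildtype. In both genes the groups overlapped. The calreticulin gene crt2, for a calcium-binding chaperone of the endoplasmic reticulum, had 18299, 17145 and 17935 in Bif1Bif4 and 21152, 18161 and 21148 in wildtype, with a narrow overlap. The 10 other tested chaperone genes ranged more widely, from a ratio of 0.268 for the small heat shock protein gene hsp18a to 2.03 for hsp22, both of which had under 50 normalized counts in every library. None of the 14 was called by limma or edgeR, against 5.04% and 4.61% of all tested genes. An unadjusted limma p under 0.05 was found for 3, against 21.0% of all tested genes. DESeq2 called Hsp70 (GRMZM2G310431) risen, against 9.66% of all tested genes in either direction.

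Ubiquitin, the tag that marks proteins for breakdown, is encoded by repeated units in near-identical genes, so counts of single copies are uncertain. The gene listed as MUB3 (GRMZM2G409726) had 23072, 25016 and 25737 in Bif1Bif4, against 23470, 21342 and 19044 in wildtype, a ratio of 1.16. The gene listed as MUB14 (GRMZM2G419891) had 20372, 22490 and 20421 in Bif1Bif4 and 22275, 22609 and 15965 in wildtype, a ratio of 1.04. In both, wildtype replicate 3 was lowest. The 1 other tested gene with a ubiquitin symbol, outside the set, had a ratio of 1.76. None of the 3 genes was called by limma, edgeR or DESeq2, against 5.04%, 4.61% and 9.66% of all tested genes. An unadjusted limma p under 0.05 was found for 1 of the 3, against 21.0% of all tested genes.

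Named members outside these groups covered several other household functions. The glycine-rich protein gene grp1, at rank 2, had 56192, 41206 and 52317 in Bif1Bif4 and 50456, 49314 and 57449 in wildtype, with overlapping groups. The gene sam2, of S-adenosylmethionine metabolism, had 35479, 36301 and 34201 in Bif1Bif4 and 36939, 39277 and 37700 in wildtype. Its groups were separate although the ratio was 0.930 (limma adjusted p = 0.513). The copper-zinc superoxide dismutase gene Sod4A, which detoxifies superoxide, had 12534, 13281 and 13486 in Bif1Bif4, against 14634, 14756 and 13647 in wildtype, with separate groups at a ratio of 0.913. The 14-3-3 protein gene GF14-6 had 9775, 11492 and 10585 in Bif1Bif4 and 9517, 9619 and 9089 in wildtype, separate in the other direction (ratio 1.13).

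A pair of genes for the ADP/ATP carrier of the inner mitochondrial membrane stood on either side of the upper bound. ANT1 had 15011, 14949 and 13404 in Bif1Bif4, against 13494, 10416 and 12002 in wildtype, a ratio of 1.21 and a limma adjusted p of 0.188. ANT2 had 14134, 13969 and 12716 in Bif1Bif4, against 11522, 8249 and 9814 in wildtype, a ratio of 1.38 and a limma adjusted p of 0.0661. In ANT1 the lowest Bif1Bif4 library was below the highest wildtype library, and in ANT2 the groups were separate.

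Genes known for roles in development were also among the most abundant stable transcripts. LEAFBLADELESS1 (lbl1) is needed to make trans-acting small RNAs that set the upper and lower sides of maize leaves. It had 14601, 14566 and 14609 in Bif1Bif4, the lowest spread within that group over the set. In wildtype its values were 15866, 12926 and 12855. The growth coactivator gene GIF1 had 9334, 11087 and 11795 in Bif1Bif4, against 12594, 12723 and 11217 in wildtype, with overlapping groups at a ratio of 0.882. The clock-associated gene gigantea1 had 13425, 12575 and 12253 in Bif1Bif4 and 12334, 10444 and 11190 in wildtype, overlapping narrowly and with a ratio of 1.13. The SBP-box transcription factor gene sbp16 had 12199, 15319 and 10822 in Bif1Bif4, against 12567, 10880 and 11360 in wildtype, with its widest values in Bif1Bif4.

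The corepressor gene rel2, whose protein is recruited by Aux/IAA proteins to silence auxin targets, had 17406, 17332 and 16926 in Bif1Bif4 and 16212, 13650 and 14831 in wildtype, with separate groups, a ratio of 1.16 and a limma adjusted p of 0.205. Auxin response factors bind the promoters of auxin-regulated genes, and of 17 tested ones besides ARF28, 3 rose and 1 fell by limma, against 5.04% of all tested genes, and none of them is in the set. Of these 4, ARF13 is among the top 200 (rank 61) and was left out only by its ratio of 1.63, with 25351, 27133 and 23618 in Bif1Bif4 and 16624, 14464 and 15739 in wildtype. DESeq2 called the same 4, and ARF2 as fallen, against 9.66% of all tested genes in either direction. ARF10 had 8978, 9290 and 9031 in Bif1Bif4, against 10384, 8922 and 9594 in wildtype, with overlapping groups. ARF18 had 14180, 14515 and 14943 in Bif1Bif4 and 11571, 19777 and 12837 in wildtype, where replicate 2 was far above the others.

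Wildtype replicate 2 also stood out in other members. In BX5, a cytochrome P450 gene of the benzoxazinoid defence pathway, the values were 10646, 9737 and 14766 in Bif1Bif4 and 9989, 16482 and 9628 in wildtype. The ratio was 0.974 with a pooled SD of 0.379, since Bif1Bif4 replicate 3 and wildtype replicate 2 were each well above the rest of their group. GRMZM2G132077, with 21176, 15413 and 16256 in Bif1Bif4 and 22638, 13739 and 29375 in wildtype, had the widest range of the set, 2.14 times from its lowest to its highest library. In that gene wildtype replicate 2 was lowest and wildtype replicate 3 highest.

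Range over the 6 libraries was otherwise small. The highest library was 1.28 times the lowest at the median of the 175 genes, with 1.07 as the smallest value. It was under 1.2 for 32 genes, under 1.5 for 158 and at least 2 for 2 genes, ald1 and GRMZM2G132077. The rule used the means of the groups and not their spread, although a gene that varies widely is more likely to leave the bounds.

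Spread within a genotype was smaller in Bif1Bif4 than in wildtype for 148 of the 175 genes. The median SD of log2 values was 0.0619 over the 3 Bif1Bif4 libraries and 0.147 over the 3 wildtype libraries. Over the 2 wildtype libraries besides replicate 2 the wildtype median was 0.0965. The same order held in 14117 of the 21924 tested genes, with medians of 0.121 in Bif1Bif4 and 0.165 in wildtype. In the 200 genes next in rank it held for 163, with medians of 0.0693 in Bif1Bif4 and 0.138 in wildtype. In the 23 other abundant genes, those outside the bounds, the medians were 0.198 in Bif1Bif4 and 0.292 in wildtype. Over the 2 wildtype libraries besides replicate 2 the wildtype medians were 0.0782 in those 23 genes and 0.124 over all tested genes. An SD over 2 libraries tends to come out lower than an SD over 3. The wildtype medians without replicate 2 are thus not on the same footing as the Bif1Bif4 medians, which rest on 3 libraries. The Bif1Bif4 pools held 10 tassels and the wildtype pools 5, and the part of pool size in these values was not tested.

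**Figure D5:**
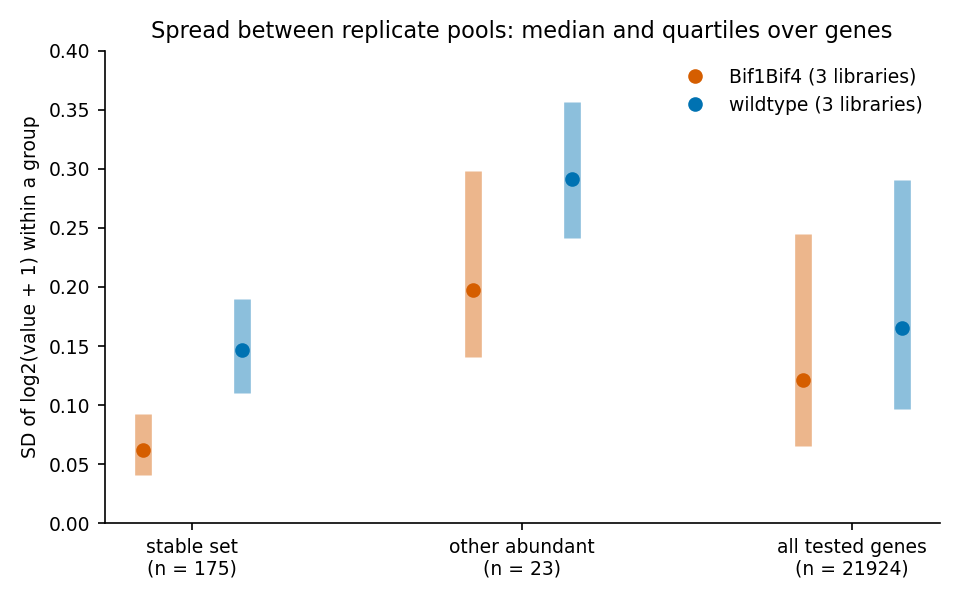
Standard deviation of log2(value + 1) within a genotype (vertical), shown as the median over genes (point) and the middle 50% of genes (bar), for the stable set, the 23 other abundant genes and all tested genes. In each set the Bif1Bif4 median is below the wildtype median, with 0.0619 against 0.147 in the stable set. Without wildtype replicate 2 the wildtype medians are 0.0965 in the stable set, 0.0782 in the 23 genes and 0.124 in all tested genes.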

How the data were processed

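RNA of pooled tassels was sequenced as stranded mRNA libraries, 3 of Bif1Bif4 and 3 of wildtype. The tools named in the submitters' processing notes are TopHat2 2.1.1, Trimmomatic, DESeq2 and HTSeq. Not given in the sources used here are their order, the genome build and the strand setting. The deposited values are a signal, namely reads per gene after division by a size factor of each library. The authors' deposited table also holds a log2 fold change, its Wald statistic (a score) and p-values. In each library 100.0% of values were whole multiples of 1 step within 1e-06 reads, so reads were recovered by division. Groups came from the sample titles.

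The main fit was limma 3.58.1 (trend, robust) on log2(value + 1) over 21924 genes with at least 10 normalized counts in at least 3 libraries, Bif1Bif4 over wildtype, two-sided. Fold changes on this scale understate changes of low genes. The labels do not say that pools were grown or harvested separately, so a p-value reflects the variation among these pools only. Genes were called risen or fallen at a Benjamini-Hochberg adjusted p under 0.05. Spread is the SD of log2(value + 1) within a group, pooled over both groups where so named. Tools were R 4.3.3, edgeR 4.0.16, DESeq2 1.42.0 and Python 3.11.15.

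The members and lists were chosen with earlier results of these data known. Names came from a RefSeq gene table (assembly Zm-B73-REFERENCE-NAM-5.0, used for names only). Of the 175 genes, 146 matched 1 entry, 7 matched more and 22 none. A symbol was found for 67, and the other 108 have none. Of all 39305 identifiers, 20308 matched no entry and 2884 had a symbol. Planned groups by gene description could not be formed, so 11 groups were set from symbols after values were seen, and 48 of the 175 genes fall in one. Named genes were the 15 most abundant members, the 3 most abundant of each group, members of families used as internal standards, those nearest each bound or rank 200, the 5 with the lowest and the 5 with the highest spread and the 5 with the largest gap at wildtype replicate 2. Of these, entries without a symbol are mostly given by count, and further genes are examples picked with their values in view.

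Alternatives were edgeR (TMM) and DESeq2 on recovered reads, other filters, pseudocounts, scalings, bounds and ranks, a replicate block, and leaving out each library. The histone count and group medians without each library were alternatives added after seeing the data.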

Additional observations from a re-analysis of the deposited data

How the results depend on the processing

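The set held 89 genes when 100 were ranked and 354 when 400 were. Its size was 168 to 182 under other bounds and scalings, and 168 to 180 when 1 library was left out, with 164 to 175 of the 175 genes shared. The share of values was 11.6% to 12.3% when 1 library was left out, lowest without wildtype replicate 1, against 12.0% for all 6. DESeq2 called 1001 genes risen and 1117 fallen over all tested genes, against 467 and 637 by limma. With 1 library left out, limma called 167 to 776 risen, most without wildtype replicate 2, and 282 to 627 fallen.

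Of the 175 genes, the number risen was 1 by limma, 0 by edgeR, with median-centred values and with a replicate block, 2 with no filter on low values and 3 by DESeq2. It was 0 to 3 when 1 library was left out. The number fallen was 0 by limma, 10 by DESeq2, and 0 to 3 when 1 library was left out, with 3 without wildtype replicate 2. The replicate block gave 381 risen and 429 fallen genes overall and 122 members with the interval inside the bounds. Deviations of libraries with the same number had correlations of 0.07, -0.17 and -0.03, and those of other pairs ran from -0.31 to 0.26. With 3 libraries a group these values cannot decide whether the numbers mark pairs. The count of histone genes within the bounds was 1, and 1 to 4 when 1 library was left out.

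Other settings left the interval count at 91 to 142. Of 56 members named by the rule, 19 had a log2 fold change of the other sign in at least 1 setting, 9 of them without wildtype replicate 2 and 4 in a setting that kept all 6 libraries. None of the 19 was called by limma, and the largest of their log2 fold changes was 0.13 in size. Ranking per kilobase and promoter motifs were not run. With 3 libraries a group, small differences are beyond what these data can show.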
